A study of Rattus norvegicus with 16 samples.

Results

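Beta-defensins are small, disulfide-bonded antimicrobial peptides of epithelia, and the family was followed here in the lungs and adipose tissue of rats with allergic airway inflammation. The genes were those whose RefSeq transcript on the array maps to a symbol of the Defb series, with the brightest probe taken for each gene. This gave 37 beta-defensin genes, each read by 1 probe, of 16678 named genes and 45598 probes. The gene table lists 42 Defb symbols, and Defb19, Defb28, Defb34, Defb37 and Defb105a had no matching probe.

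Both tissues were taken from the same 8 male Brown Norway rats, with 1 array per rat and tissue. The study describes the rats that entered the protocol as 7 weeks old and gives no age at death. The 5 HDM rats were sensitized with 45 µg of house dust mite (HDM) in Al(OH)3 under the skin, weekly over 3 weeks. For the next 3 weeks, each of 3 weekly intranasal doses held 120 µg of HDM. The 3 control rats received saline by the same routes, with Al(OH)3 in the injections, so the adjuvant is shared by all rats. The labels name no fat depot and no part of the lung.

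Beta-defensins kill or bind microbes at mucosal surfaces, and some also attract leukocytes through the chemokine receptors CCR6 and CCR2. Airway epithelium makes a few of them, in part in response to interleukin-1 beta, interleukin-17 and Toll-like receptor signals. A far larger number is made by the epididymis, the duct in which sperm mature, where several coat the sperm surface. The genes lie in clusters, and of the 37 measured, 18 are on chromosome 16, 10 on chromosome 3, 5 on chromosome 15 and 4 on chromosome 9 of the GRCr8 assembly.

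All levels are given as log2 of the background-subtracted spot signal minus the 75th percentile of the array, so that 0 is the 75th percentile. This percentile was a signal of 376 to 488 in the lungs and 111 to 240.0 in adipose tissue. The scanner software marked 62.1% to 68.8% of probes as well above background on the lung arrays, and 50.4% to 60.2% on the adipose arrays. A gene is called detected where it carries this mark. By a looser mark of the same software, signal positive and significant, 36 of the 37 genes rather than 18 would count as detected in lung. The dimmest marked probe of a lung array lay at -5.66 to -5.04, and that of an adipose array at -4.54 to -3.69, so a dim gene had to be brighter, relative to its array, to be detected in adipose tissue. Each tissue was hybridized on a slide of its own, so tissue and slide cannot be told apart. HDM rats 1 to 4 lay in 1 row of each slide, and HDM rat 5 and all control rats in the other.

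Which beta-defensins are expressed in each tissue was asked first. In lung, 18 of the 37 genes were detected on at least 1 array, and 10 of them on all 8 arrays (Defb4, Defb5, Defb14, Defb20, Defb24, Defb25, Defb27, Defb36, Defb43 and Defb52). In adipose tissue, 27 genes were detected on at least 1 array but only 4 on all 8 (Defb20, Defb24, Defb25 and Defb43). Defb4, Defb5 and Defb14 were detected in lung and on no adipose array. Conversely, 12 genes were detected on an adipose array and on no lung array, among them Defb17, Defb18, Defb39 and Defb44. Defb2, Defb11, Defb23, Defb26, Defb33, Defb38 and Defb50 were detected on none of the 16 arrays.

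The number of detected genes was even across the lungs and uneven across the adipose samples. Each lung array detected 12 to 15 of the 37 genes. Among the adipose arrays, control rat 1 detected 24 and HDM rat 1 detected 22, compared with 13 in control rat 3 and 6 to 9 in the other 5 rats. Over all probes, the arrays of control rat 1 and HDM rat 1 detected 56.5% and 58.4%, within the range of the other adipose arrays.

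**Figure D1:**
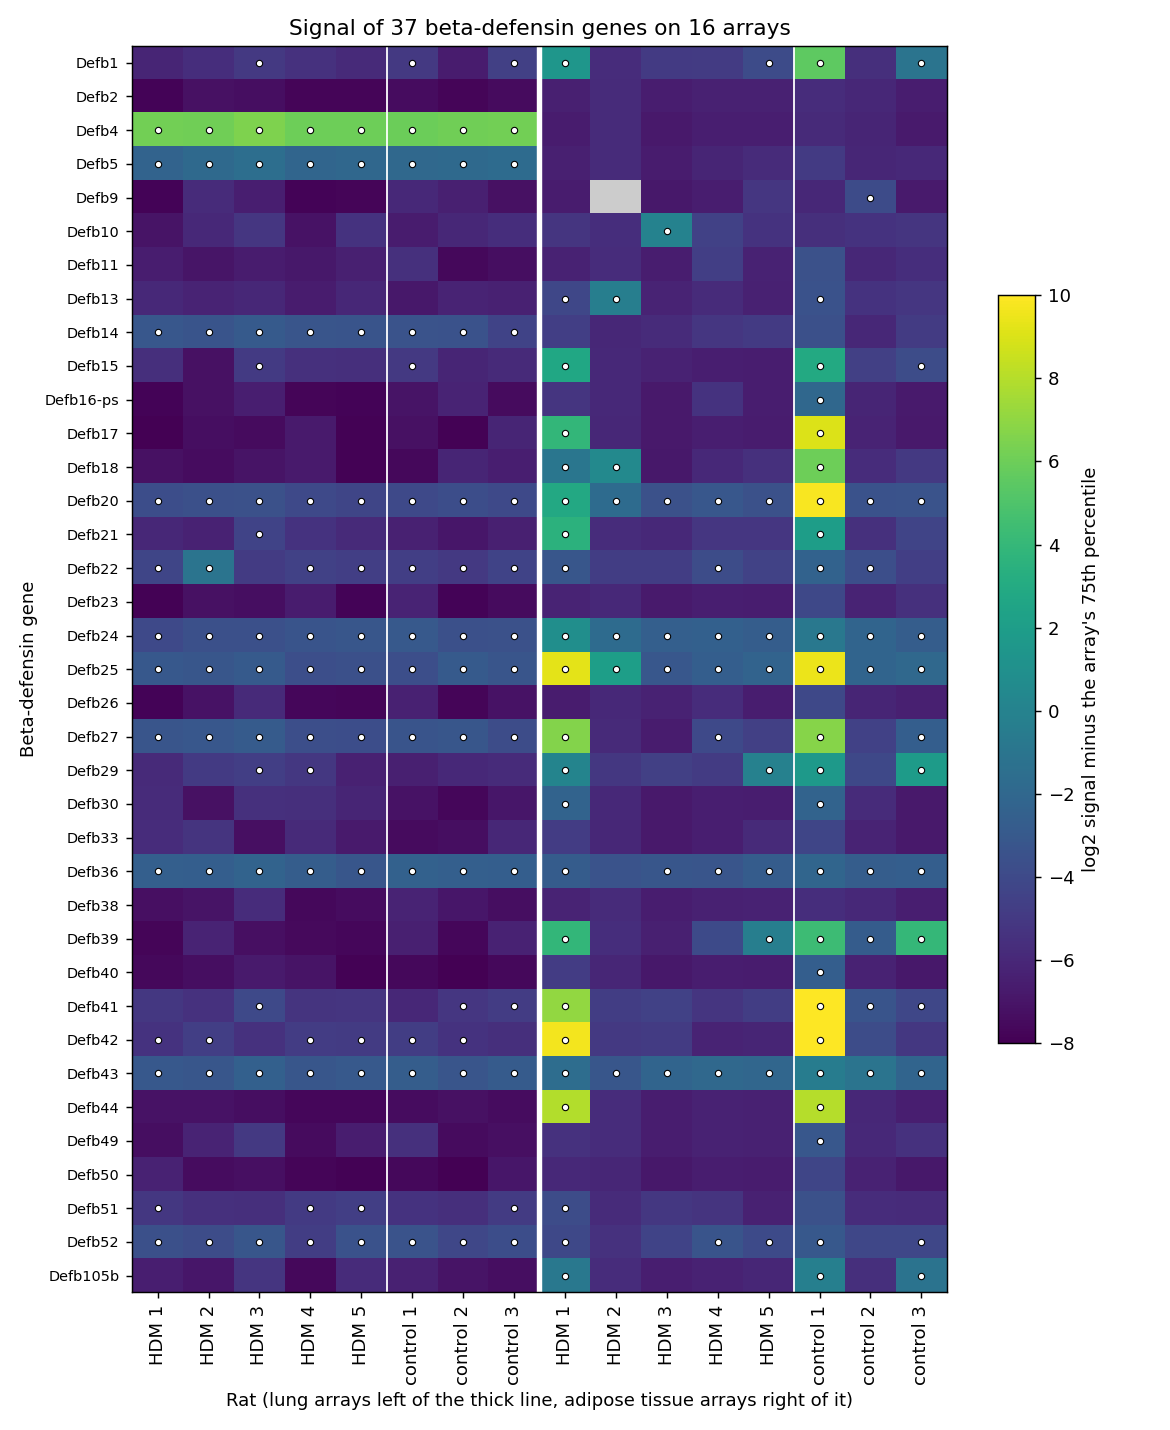
Signal of the 37 beta-defensin genes (rows) on the 16 arrays (columns), as log2 signal minus the array's 75th percentile. White points mark detection, grey marks an outlier spot that was left out, and colors compare arrays within a row. Defb4 and Defb5 are seen in all lungs, and many genes in the adipose tissue of HDM rat 1 and control rat 1.

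Of the 3 lung genes without detection in adipose tissue, Defb4 varied least from rat to rat. Defb4, which was first described as a beta-defensin of rat lung, had a log2 level of 6.15, 6.09, 6.53, 5.99 and 6.04 in the lungs of HDM rats 1 to 5. In control rats 1 to 3 it was 5.97, 6.13 and 6.17. The groups overlapped, and HDM rat 3 was highest. In adipose tissue Defb4 lay between -6.78 and -5.79, and its lung level was at least 1280-fold higher (limma adjusted p = 1.6e-08, lung against adipose tissue).

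Defb5 was lower, relative to its array, in the lung of HDM rat 1 than in the lung of any other rat. Its log2 level was -2.25, -1.87, -1.52, -2.10 and -1.99 in HDM rats and -1.91, -1.85 and -1.72 in control rats. Its lung level was at least 4.88-fold higher than in adipose tissue (limma adjusted p = 3.0e-06). Defb14, whose mouse counterpart is a chemoattractant and antimicrobial peptide of epithelia, was at least 1.73-fold higher in lung (adjusted p = 0.0019). These bounds compare the lung mean with the higher of each adipose signal and the dimmest probe well above background on that array.

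The other genes detected in most lungs were dim. Defb20, Defb24, Defb25, Defb27, Defb36, Defb43 and Defb52 lay between -4.73 and -2.26 on all lung arrays. Defb42 was detected in 6 of 8 lungs and Defb51 in 4. Defb22, which encodes a sperm-coating protein of the epididymis, was detected in 7 of 8 lungs. Its log2 level was -1.04 in HDM rat 2 and between -4.98 and -4.23 in the other 7 rats, so a single lung stood apart.

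**Figure D2:**
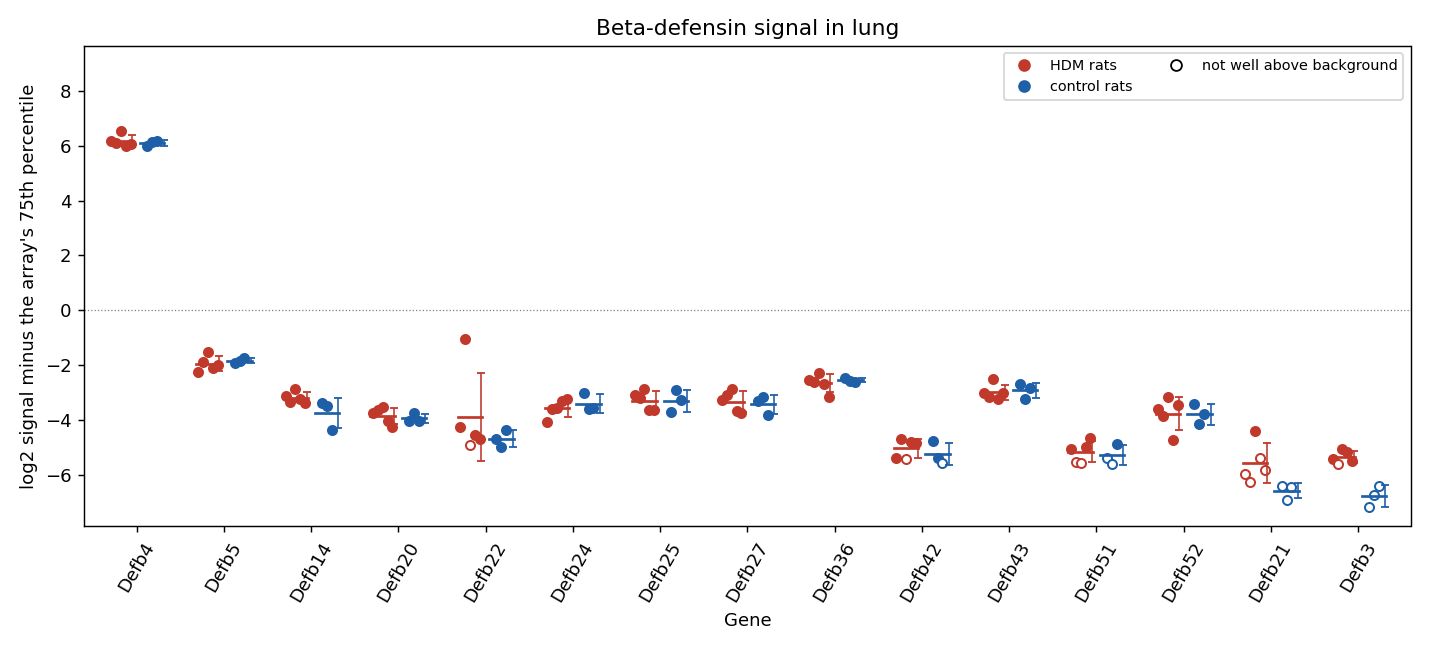
Log2 signal minus the array's 75th percentile in lung for the 13 genes detected on at least 4 of 8 arrays, for Defb21 and for the Defb3 probe. Points are rats, open points were not well above background, and bars are group means ± SD (HDM n = 5, control n = 3). Defb4 was near 6 in every rat, and the Defb3 points of the groups do not overlap.

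HDM rats were then compared with control rats in the lung. Of the 37 genes, 0 were called with limma (adjusted p below 0.05 over all probes and a change above 1.5-fold), against 0.855% of all probes tested. At an unadjusted p below 0.05 there were 2 genes, Defb21 and Defb30, and the methods' t-test also called 0, with 1 gene below that unadjusted level. The mean was higher in HDM rats for 20 genes and lower for 17. The median log2 fold change of the 37 genes was 0.02, beside 0.00 for the whole array, and no gene had an adjusted p under 0.31. With slide row fitted as a block, which leaves HDM rat 5 against the control rats, the median was -0.16 and again 0 genes were called.

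For Defb4 the log2 fold change was 0.07 ± 0.15 (SE, limma adjusted p = 0.98). Defb5 differed by -0.12 ± 0.17 (adjusted p = 0.95). Both differences were smaller than their standard errors. The groups did not overlap for 2 genes, Defb14 and Defb21, compared with 9.61% of all probes with a value on every lung array.

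Defb14 had log2 levels of -3.12, -3.33, -2.87, -3.23 and -3.36 in the lungs of HDM rats and -3.37, -3.47 and -4.35 in control rats. The lowest HDM rat was next to the highest control rat, and control rat 3 was far below the others. The log2 fold change was 0.55 ± 0.24 (SE, limma adjusted p = 0.49). Defb21 was detected in the lung of HDM rat 3 alone, at -4.40, so its difference of 1.00 ± 0.40 (adjusted p = 0.44) rested on signals near background. Defb30, with 1.18 ± 0.39 (adjusted p = 0.31), was detected in no lung.

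**Figure D3:**
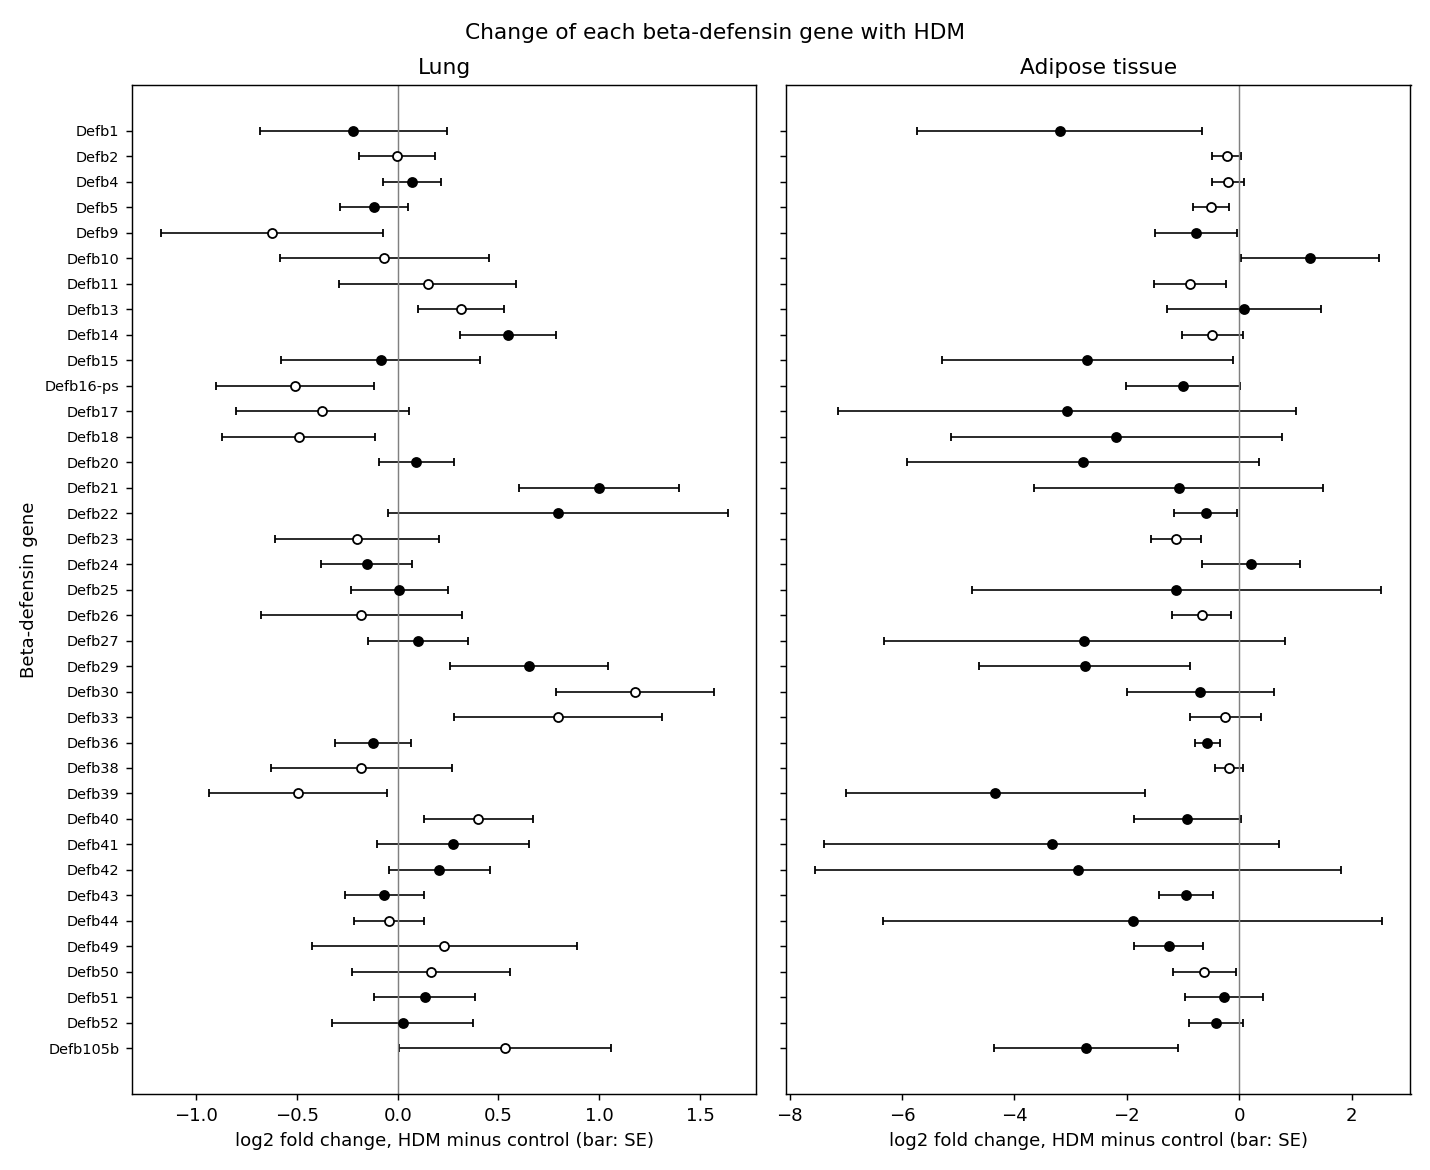
Log2 fold change of each of the 37 genes, HDM minus control, with its SE, in lung and in adipose tissue on separate x axes. Filled points are genes detected on at least 1 array of that tissue. Lung values lie on both sides of 0, and 34 of 37 adipose values lie below 0, with wide errors.

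A further probe reads Defb3, whose mouse counterpart is an airway beta-defensin induced by infection. Its transcript is absent from the gene table used, so it is not among the 37 genes, and its name was taken from the study's list of changed lung probes, which was chosen on these samples. The 60-base probe is shown because it carries the change that follows.
Defb3 probe: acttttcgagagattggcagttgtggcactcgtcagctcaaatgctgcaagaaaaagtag

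In lung this probe had log2 levels of -5.41, -5.58, -5.05, -5.15 and -5.47 in HDM rats and -7.17, -6.72 and -6.38 in control rats. All HDM rats were above all control rats, and it was detected in 4 of 5 HDM rats and 0 of 3 control rats. The log2 fold change was 1.42 ± 0.20 (SE, limma adjusted p = 0.026 over all probes). Because no control lung was above background, the difference is bounded at only 1.06-fold or more. The call was lost when HDM rat 1, 2, 4 or 5 was left out (adjusted p = 0.077, 0.058, 0.060 and 0.062) and when control rat 1 or 2 was left out (adjusted p = 0.085 and 0.12), with log2 fold changes between 1.22 and 1.49. It was lost without rat 1 of both groups (1.24, adjusted p = 0.22), with slide row as a block (1.28, adjusted p = 0.45) and with the replicate number as a block (1.41, adjusted p = 0.31). With normexp background correction the call was lost and the log2 fold change shrank to 0.15 (adjusted p = 0.17). The probe was detected on no adipose array.

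In adipose tissue, 2 rats of opposite groups stood apart. In HDM rat 1 and control rat 1, 20 of the 37 genes had a higher signal than in all of the other 6 rats. The share of all probes with this order was not counted, and the deviations of the 2 arrays from their group means correlated at 0.59. Among the 20, Defb14, Defb33 and Defb50 were detected on no adipose array. Defb16-ps and Defb40 were not detected in HDM rat 1, nor Defb51 in control rat 1. Of the 20 genes, 10 lay above the 75th percentile of the array in both rats (Defb1, Defb15, Defb17, Defb20, Defb21, Defb25, Defb27, Defb41, Defb42 and Defb44). This pattern was not seen in the lungs of the same rats, where Defb42 was at -5.39 and -4.76, within the range of the other 6 lungs.

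Defb42, a defensin known from the epididymis, had a log2 level of 9.70 in the adipose tissue of HDM rat 1 and 9.99 in that of control rat 1. In HDM rats 2 to 5 it was -5.02, -4.88, -6.22 and -6.14, and in control rats 2 and 3 it was -3.83 and -5.09. None of these 6 samples was above background, so Defb42 was at least 15367-fold higher in HDM rat 1 and at least 18817-fold higher in control rat 1. Defb44 was likewise detected in these 2 rats alone, at 7.91 and 7.99, and was at least 4533-fold and 4807-fold higher than in the others.

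Defb25 was at 9.26 in HDM rat 1 and 9.48 in control rat 1, compared with 2.11 in HDM rat 2 and -3.10 to -1.91 in the remaining 5 rats. Defb41 was at 7.08 and 10.27, compared with -5.22 to -3.32 in the other 6 rats. Both genes therefore separated the same 2 rats from the rest.

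Although they shared these genes, the 2 rats differed in their proportions. Of the 10 genes above, Defb15, Defb25, Defb27, Defb42 and Defb44 were within 1.5-fold of each other in the 2 rats. Defb1, an epithelial defensin also made in kidney, was 16.4-fold higher in control rat 1, and Defb41 was 9.16-fold higher. For Defb17 the ratio was 33.8-fold, with levels of 3.95 and 9.03, and for Defb20 it was 119.5-fold, with levels of 2.89 and 9.79. Defb21 went the other way, with 3.57 in HDM rat 1 and 2.02 in control rat 1. No test was made, because each value is a single array.

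**Figure D4:**
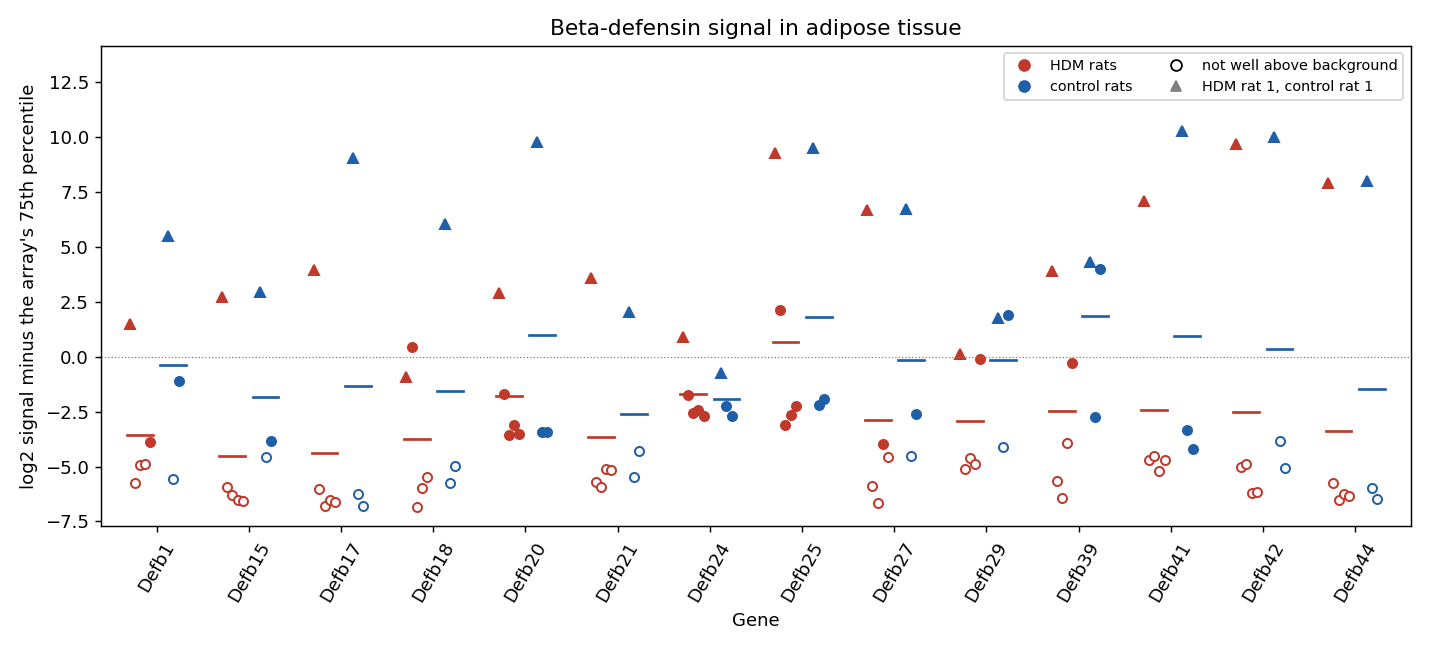
Log2 signal minus the array's 75th percentile in adipose tissue for the 14 genes above 0 in HDM rat 1 or control rat 1. Points are rats, triangles mark HDM rat 1 and control rat 1, open points were not well above background, and bars are group means. Both triangles lie above the other rats for most genes, and control rat 3 joins them for Defb39 and Defb29.

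Markers of another tissue moved with these genes. Of 13 listed epididymis markers 12 were measured, and all 12 were detected in the adipose tissue of both HDM rat 1 and control rat 1 and higher there than in the other 6 rats. Gpx5, the secreted glutathione peroxidase of the epididymis, was at 9.61 and 10.16 in the 2 rats and at -6.54 to -3.62 in the others. The log2 of the summed marker signal ranged from -1.67 to 12.25 in HDM rats and from -0.50 to 12.51 in control rats, with HDM rat 1 and control rat 1 at the top. No epididymis marker differed between the 2 rats by more than 1.40 on the log2 scale. Of the 10 defensins high in both rats, Defb20 and Defb17 differed most, by 6.90 and 5.08. Within 1.5-fold were 5 of these 10 defensins and 6 of the 12 markers. Defb18, which is not among the 10, differed by 6.97. Of 7 testis markers, 5 were higher in both rats than in the others, with summed log2 signals of 3.13 and 3.67 against -0.64 to 0.10. The part of these markers in the defensin signal was not tested. In bulk tissue, fewer cells of a type and less RNA per cell cannot be told apart.

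**Figure D5:**
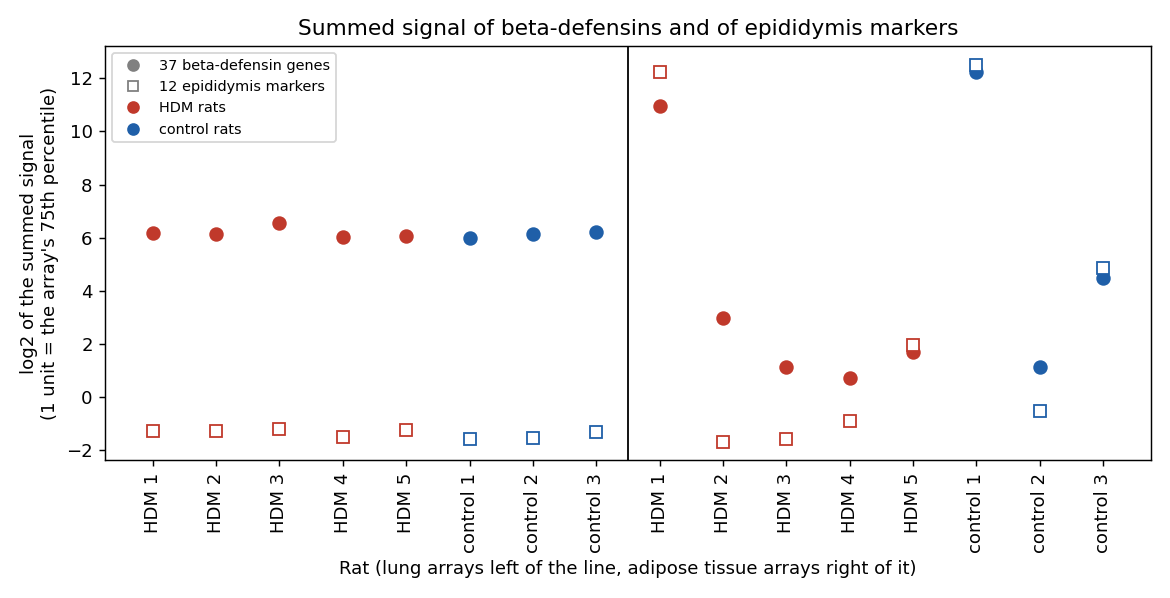
Log2 of the summed signal of the 37 beta-defensin genes (filled circles) and of 12 epididymis markers (open squares) on each array, where a signal of 1 is the array's 75th percentile. Circles and squares hold different probes, so each is read across arrays. In adipose tissue both are highest in HDM rat 1 and control rat 1, followed by control rat 3.

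For the genes with high signals in these 2 adipose samples, the 120 bases before the start of 5 of them are given with Defb5, which was detected in lung and not in adipose tissue. Sequences are from RefSeq on GRCr8, where 23 of the 37 genes have an entry. Capitals mark TATAAA or AGAACA on either strand, and ATAAAA on the sense strand within 45 to 21 bases before the start. AGAACA is a half-site of the androgen receptor and of other steroid receptors. TATAAA and ATAAAA can overlap.
Defb42, chr15:41417611-41417730, minus strand: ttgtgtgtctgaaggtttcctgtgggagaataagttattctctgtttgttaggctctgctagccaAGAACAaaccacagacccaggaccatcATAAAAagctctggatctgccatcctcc
Defb41, chr15:41430862-41430981, plus strand: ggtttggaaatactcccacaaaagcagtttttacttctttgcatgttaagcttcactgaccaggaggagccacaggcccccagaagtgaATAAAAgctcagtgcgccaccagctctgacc
Defb25, chr3:161560026-161560145, minus strand: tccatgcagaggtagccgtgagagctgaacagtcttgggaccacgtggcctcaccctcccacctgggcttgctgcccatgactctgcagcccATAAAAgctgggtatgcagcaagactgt
Defb17, chr9:28380422-28380541, minus strand: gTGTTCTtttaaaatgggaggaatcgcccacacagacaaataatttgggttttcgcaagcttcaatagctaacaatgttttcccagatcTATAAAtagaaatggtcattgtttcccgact
Defb20, chr3:161408275-161408394, plus strand: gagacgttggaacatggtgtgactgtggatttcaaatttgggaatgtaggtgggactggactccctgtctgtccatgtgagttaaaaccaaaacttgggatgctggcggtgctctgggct
Defb5, chr16:77317829-77317948, minus strand: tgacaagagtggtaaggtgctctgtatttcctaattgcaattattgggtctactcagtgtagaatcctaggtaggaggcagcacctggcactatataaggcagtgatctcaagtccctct

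Defb42, Defb41 and Defb25 hold ATAAAA at 31 to 23 bases before the start. Within the window of 45 to 21 bases before the start, it was found in 5 of the 23 genes and in 1.38% of all 33469 promoters. This motif was chosen after these sequences had been seen. Only exact matches were marked, so the similar stretch tatataagg of Defb5, in the same window, carries no capitals. Over the full 250 bases before the start, AGAACA on either strand was found in 9 of the 23 genes, Defb42, Defb41, Defb25 and Defb17 among them, and in 17.5% of all promoters. TATAAA on either strand was found in 7 of the 23 genes and in 12.9% of all promoters. A match of letters is a description and does not show that a factor binds there.

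A second pattern in adipose tissue included control rat 3. Defb39 had log2 levels of 3.90, -5.66, -6.45, -3.94 and -0.29 in HDM rats 1 to 5 and 4.32, -2.76 and 4.00 in control rats 1 to 3. Defb29 followed it, with 0.14 in HDM rat 1, -0.09 in HDM rat 5, 1.76 in control rat 1 and 1.88 in control rat 3, and at most -4.13 in the other 4 rats. Both genes were thus highest in the same 4 rats, and Defb39, unlike Defb29, was also detected in control rat 2. Defb1 and Defb105b were detected in control rat 3 as well, at -1.10 and -1.11. The summed epididymis markers were 4.85 in control rat 3 and 1.98 in HDM rat 5, compared with -1.67 to -0.50 in the other 4 rats outside HDM rat 1 and control rat 1, and the lipocalin Lcn5 alone, at 4.82 and 1.80, made up most of both sums. In control rat 3, 4 of the 12 markers were detected (Lcn5, Adam7, Rnase10 and Eppin), and Gpx5 was at -6.54 and Crisp1 at -6.80. This count did not set control rat 3 apart. Control rat 2 also had 4 detected markers, HDM rats 4 and 5 had 3 each, HDM rat 3 had 2 and HDM rat 2 had 0. The part of these markers was again not tested.

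Other signals were high on adipose arrays outside these patterns. Defb10 was at -0.02 in HDM rat 3 and between -5.68 and -4.50 in the other 7 rats. Defb13 was highest in HDM rat 2, at -0.30, and was also detected in control rat 1, at -3.44, and HDM rat 1, at -4.18. Defb18 was at 0.46 in HDM rat 2, below control rat 1 (6.03) and above HDM rat 1 (-0.94), and was detected in no other rat. The alpha-defensin Np4 was at 0.07 in HDM rat 2 and between -6.78 and -5.95 in the other rats. On the array of HDM rat 2, 1224 spots were marked as outliers, against 355 to 444 elsewhere in adipose tissue, and the part of this difference was not tested.

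Defb36 and Defb43 were detected on most adipose arrays. Defb36 was detected in 7 of 8 rats, with log2 levels of -2.75, -3.39, -3.18, -3.23 and -2.80 in HDM rats and -2.14, -2.69 and -2.65 in control rats. Its groups did not overlap, which held for 1 of the 37 genes and 6.26% of all probes, and the log2 fold change was -0.57 ± 0.22 (SE, limma adjusted p = 0.47). Defb43 was detected in all 8 rats, at -3.21 to -0.43, and its fold change on the log2 scale was -0.95 ± 0.47 (limma adjusted p = 0.56). Neither difference passed the test.

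Against the control rats, 0 of the 37 genes were called in the adipose tissue of HDM rats, against 0% of all probes tested. With limma, 2 genes (Defb23 and Defb36) had an unadjusted p below 0.05, and the methods' t-test called 0, with 1 gene below that level. The mean was lower in HDM rats for 34 genes, and the median log2 fold change was -0.93, beside -0.15 over all probes. Scaling arrays to their median moved the value over all probes to 0.14. With this scaling 29 genes had the lower mean, and with quantile normalization 28. The median of the 37 genes was -0.36 with array weights and -0.09 with normexp correction, and -2.44 over the genes left when dim probes were removed. The direction rested on control rat 1, which had the highest adipose signal for 30 of the 37 genes and is 1 of only 3 control rats. The 34 genes include all 10 that were detected on no adipose array, and the 30 include these except Defb4. Among the adipose arrays, that of control rat 1 had the lowest 75th percentile (111), and its dimmest marked probe lay highest (-3.69). Without control rat 1, 15 genes had the lower mean and the median was 0.13. Without both HDM rat 1 and control rat 1, 20 genes had the lower mean and the median was -0.03. The 4 neutrophil markers had summed log2 signals of 1.51 to 3.02 in the adipose tissue of HDM rats and -2.11 to -1.49 in that of control rats, with 0 of them called, and their part was not tested.

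None of the widest differences passed the test. The log2 fold change was -4.34 ± 2.66 for Defb39 (SE, limma adjusted p = 0.66). It was -3.34 ± 4.04 for Defb41 and -2.87 ± 4.68 for Defb42. For Defb17 it was -3.06 ± 4.08 and turned to 2.12 when control rat 1 was left out.

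Levels in lung and adipose tissue were compared within each rat. Lung was higher for 3 of the 37 genes, Defb4, Defb5 and Defb14, against 14.9% of all probes. Adipose tissue was higher for 16, against 39.4% of all probes. Of these 16, 11 were detected on at most 3 adipose arrays, and these 11 include 6 that were detected on no array of either tissue. Most signals of the 11 therefore lay near the floor, which was higher in adipose tissue, and no fold is given for them. Defb18, at 6.03 in the adipose tissue of control rat 1, was an exception. With quantile normalization the split was 3 genes higher in lung and 5 in adipose tissue, and with normexp correction 2 and 3, with Defb14 and Defb24 among the genes no longer called. Defb24 and Defb43, which were detected on all 16 arrays, differed by -1.66 ± 0.49 and -1.23 ± 0.25 (log2 difference, lung minus adipose tissue, SE, limma adjusted p = 0.018 and 0.0030), beside a median of -0.50 over all probes. The change with HDM differed between the tissues for 0 of the 37 genes (limma on the difference within each rat), against 0.00219% of all probes, and 1 gene, Defb23, had an unadjusted p below 0.05.

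The rest of the defensin pathway was read from gene lists. Of 5 measured receptors for beta-defensins, 2 were called in the lung, both higher in HDM rats, against 0.855% of all probes. Tlr2, which senses bacterial lipoproteins, had a log2 fold change of 1.13 ± 0.14 (SE, limma adjusted p = 0.015), and Tlr1, its partner, 0.95 ± 0.14 (adjusted p = 0.028). Ccr2 missed the threshold with 0.91 ± 0.19 (adjusted p = 0.093), and for Ccr6 the value was -0.09 ± 0.18. Among 19 measured signals that induce or lower beta-defensins, Il1b alone was called, higher in HDM rats by 1.62 ± 0.26 on the log2 scale (limma adjusted p = 0.037). Il17a, Il17f and Il22 were detected on no array.

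Some of the other listed antimicrobial genes were called in the lung. Of 15 measured, 4 were called, all higher in HDM rats, against 0.855% of all probes. The list was chosen with earlier results of these data known. S100a8 and S100a9, subunits of the neutrophil protein calprotectin, had log2 fold changes of 4.46 ± 0.29 and 4.09 ± 0.24 (SE, limma adjusted p = 0.00074 and 0.00038). The peptidoglycan-binding Pglyrp1 had 2.40 ± 0.19 and the chitinase-like Chi3l1 1.33 ± 0.12. Camp, the cathelicidin, missed the threshold with 1.26 ± 0.30 (adjusted p = 0.13). In adipose tissue 0 genes of these lists were called.

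Alpha-defensins, which neutrophils and Paneth cells store, varied widely in the lung. Of 9 measured, 0 were called. The mean log2 level of Np4 was -1.43 in the 5 HDM lungs (SD 1.51) and -4.10 in the 3 control lungs (SD 1.49), and HDM rats 2 and 3 were highest. Its log2 fold change was 2.68 ± 0.96 (SE, limma adjusted p = 0.36). The 4 listed neutrophil markers were all called higher in HDM lungs, with summed log2 signals of 6.93 to 8.06 against 2.96 to 3.29 in control rats. Whether this accounts for the antimicrobial genes was not tested, and S100a8 and S100a9 stand on both lists. The tissue labels were checked by level, since Adipoq, Cidec, Fabp4 and Cfd were also detected in all lungs and Ager in all adipose samples. The summed log2 signal of 4 alveolar markers was 10.16 to 10.46 in lung and 0.36 to 1.01 in adipose tissue. That of 6 adipocyte markers was 10.16 to 11.08 in adipose tissue and 2.22 to 4.62 in lung.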

How the data were processed

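Total RNA of 16 samples was labeled with Cy3 and hybridized to 1-color Agilent rat 8x60K arrays. The authors deposited the spot intensity of each array on a linear scale, extracted and background-subtracted with Feature Extraction 12.0.3.1, with a flag that marks outlier spots and another that marks signals well above background. The authors also deposited a table of normalized log2 values, used here as an alternative. It was checked against the intensities, and 39 of its cells that hold no number were treated as missing.

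Outlier spots and control probes were left out. The log2 values of repeated spots were averaged per probe, and each array was centred on its 75th percentile. In each tissue, the comparison of HDM with control rats used limma 3.58.1 in R 4.3.3 over all 45598 probes (Benjamini–Hochberg, adjusted p below 0.05 and a change above 1.5-fold). The study's methods name an unpaired t-test with the same adjustment and fold threshold, and adjustment over only the probes past that fold was an alternative. Lung and adipose tissue were compared on the difference within each rat, which the labels pair. The fits were tested on simulated data. Symbols came from RefSeq accessions and a table of 47357 rat genes (GRCr8), which named 21229 probes and left the others unnamed. Whether probes tell close family members apart was not tested. Defb1, Defb2, Defb3, Defb4 and, beside these, genes detected on at least 4 arrays of a tissue, the 10 largest changes per tissue among detected genes, and all called genes were named. Of the lists, called genes and the largest other changes were named, and Defb genes outside the rule were named in counts and as single-array signals. The members and lists were chosen with earlier results of these data known. The number of arrays limits precision. Alternatives covered normalization, background, filters, tests, blocks and leaving out each rat. Python 3.11.15 and matplotlib 3.10.9 were used for tables and figures.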

Additional observations from a re-analysis of the deposited data

Results flagged for a closer look

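In each tissue, the 5 HDM rats were examined for a highest or lowest rat far from the rest (Dixon's test). Of 46 groups of HDM rats, 18 had such a rat, 14 of them in adipose tissue. Not every gene was examined in each tissue. Some flagged genes, such as Defb10 and Defb42, were detected in the adipose tissue of the flagged HDM rat and of no other HDM rat. No chance rate is therefore set beside these counts. The same rat recurs, so the groups are not independent.

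HDM rat 1 was highest in adipose tissue for 12 genes. Its log2 level was 9.70 for Defb42, 7.91 for Defb44, 7.08 for Defb41 and 6.66 for Defb27. It was 3.95 for Defb17, 3.57 for Defb21, 2.89 for Defb20 and 2.74 for Defb15. It was 1.48 for Defb1, 0.90 for Defb24, -0.76 for Defb105b and -2.25 for Defb30. Control rat 1 was high for these genes as well, as were the epididymis markers in both rats, and the part of those markers was not tested.

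Other adipose samples stood apart for 1 gene each. Among the HDM rats, Defb10 was highest in HDM rat 3, at -0.02, and Defb9 in HDM rat 5, at -5.17, which was not above background.

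In lung, Defb22 was highest in HDM rat 2, at -1.04. HDM rat 3 was highest for Defb41, at -4.06, and for Defb43, at -2.51. Defb15 was lowest in HDM rat 2, at -7.19, below background.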

How the results depend on the processing

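For HDM against control rats, 0 of the 37 beta-defensin genes were called in either tissue under all alternatives run. The Defb3 probe, which is outside the 37, kept its call in lung under 12 of 22 alternatives. The number of genes that differed between lung and adipose tissue, 19, dropped to 8 with quantile normalization, to 5 with normexp correction and quantile normalization and to 10 without dim probes, which are then not tested. The cause of the first 2 was not tested. Leaving out a rat gave 13 to 21. Detection in lung moved from 18 genes to 36 both with the looser mark and above the 99th percentile of the negative controls, and in adipose tissue from 27 to 34. Without HDM rat 1 and control rat 1, which was chosen after seeing the data, 18 genes were detected in adipose tissue. Adjusting over only the probes past 1.5-fold raised the calls over all probes from 390 to 1329 in lung and from 0 to 28 in adipose tissue, with 0 of the 37 genes among them. With the replicate block, 0 genes were called and the median log2 fold change was 0.15 in lung and -0.64 in adipose tissue. Over all probes the block gave 0 calls in lung, against 390 without it. Same-numbered HDM and control rats correlated at -0.06, -0.08 and 0.05 in lung and at 0.59, 0.14 and 0.10 in adipose tissue, so the numbers were not taken as pairs. Leaving out 1 rat, the median ranged from -0.07 to 0.11 in lung and from -1.42 to 0.13 in adipose tissue. Of the single-gene values for HDM against control rats, 10 lost their call, all of the Defb3 probe in lung, and no called value changed sign. Each gene had 1 probe, so another probe per gene was not run. Signals near background limit the dim genes.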
